A study of Mus musculus with 66 samples.

Results

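Chaperones and protein folding factors were represented in this cerebellar data set by 36 genes, measured by 42 cDNA probes, out of 4209 genes that a probe with a single gene symbol represented. They were chosen by name from the Hsp70, Hsp90, J-domain, prefoldin, protein disulphide isomerase, FK506-binding, cyclophilin, Bag and TRiC families. Hspbp1, St13 and Serpinh1 were also chosen by name. The members fell into 12 J-domain proteins (Dnaja1, Dnaja2, Dnajb9, Dnajb11, Dnajc3, Dnajc10, Dnajc13, Dnajc15, Dnajc17, Dnajc18, Dnajc21 and Dnajc30), 5 Hsp70 family proteins (Hspa4l, Hspa5, Hspa8, Hspa9 and Hspa12a), 5 TRiC chaperonin subunits (Tcp1, Cct2, Cct4, Cct6a and Cct7), 5 FK506-binding proteins (Fkbp1a, Fkbp3, Fkbp5, Fkbp9 and Fkbp11), 3 protein disulphide isomerases (Pdia3, Pdia5 and Pdia6), Hsp90aa1 with the cochaperone St13, 2 prefoldin subunits (Pfdn1 and Pfdn5), Hspbp1 and the collagen chaperone Serpinh1. No filter on signal was applied, so all 36 entered every comparison. The gene names are those of the array's annotation, and the probes were not resequenced here. Hspa1a, Hspa1b, Hsp90ab1, Hsp90b1, Hspb1, Hspd1, Hspe1 and Ppia were not analysed here.

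The cerebellum was taken from 66 C57BL/6 mice, 35 females and 31 males, and total RNA of each mouse was hybridized to its own nylon filter. Mice under caloric restriction (CR) were brought down in steps to 60% of a fortified feed and were killed at 6 months (9 mice), 16 months (10) or 24 months (8). Mice fed ad libitum (AL) were killed at 17-21 days (5 mice), 33-44 days (5), 6 months (10), 16 months (10) or 24 months (9). Both sexes stood in every group, no gene was altered, and adult mice were housed singly, per the study's methods. The 24-month CR males were all 673 days old, whereas the 24-month AL males were 719 to 743 days old, so that in males of that age diet and age cannot be told apart. The 24-month females were 703 to 743 days old under CR and 704 to 733 days old under AL.

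Values are Z scores: on each array, 0 is the mean over its 8448 probes and 1 is the SD of its probes. Differences are therefore in units of that SD, and no fold change can be formed. A Z score also depends on the probe, so the levels below rank probe signals and not amounts of transcript. The median correlation of an array with the others was 0.921 to 0.975 on 63 arrays, and 0.695, 0.701 and 0.820 on the other 3, which were CR arrays of 1 run of arrays (a male and a female of 16 months and a female of 24 months) and were left out unless stated. Markers were few: the Purkinje cell marker Car8 averaged a Z score of 0.84 and Calb1 -0.01, the glial markers Vim 1.00 and Slc1a3 0.03, and the 3 measured blood genes of 6 listed were below 0. None of the 10 listed granule cell markers and none of the 8 listed oligodendrocyte markers was among the genes analysed, so the tissue label was checked only through 2 of 8 Purkinje cell markers. In whole tissue, fewer cells of a type and less RNA per cell cannot be told apart.

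Chaperones bind unfolded or partly folded proteins and use cycles of binding and release, often driven by ATP, to let them fold, assemble or be handed to the degradation machinery. Hsp70 proteins hold short hydrophobic stretches, J-domain proteins bring them clients and trigger ATP hydrolysis, and nucleotide exchange factors let the client go. Neurons do not divide and so cannot dilute misfolded proteins, and Purkinje cells in particular degenerate in mice and humans with defects of ER chaperone cofactors.

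The ER branch of this network is under transcriptional control through short promoter elements, so the promoters were read first. RefSeq promoters of 300 bases (250 before and 50 after the annotated start, build GRCm38.p6) matched 28 of the 36 genes, with 33 promoters in all; there was no match for Cct4, Dnajc18, Dnajc30, Hsp90aa1, Hspa8, Hspa9, Pfdn1 and St13. The ER stress response element, searched on both strands as CCAAT and CCACG with any 9 bases between them, stood in 3 of the 33 promoters (Hspa5, Dnajc3 and Pdia6), against 0.119% of all 32851 promoters. The related element II, searched on both strands as ATTGG and CCACG with any 1 base between them, stood in 1 (Dnajb11), against 0.0365% of all promoters. The heat shock element of 2 units, GAA and TTC with any 2 bases between them, which reads the same on both strands, stood in 2 (Cct2 and Dnaja1) against 7.86% of all promoters, and that of 3 units, GAA, TTC and GAA spaced alike, in 0 against 0.603%. The heat shock elements of 2 and 3 units overlap each other by construction, and the 2 ER elements share CCACG and, on opposite strands, CCAAT but did not overlap in these promoters. A match of letters is a description of the window and not evidence of binding.

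The 4 promoters with an ER element are shown because their genes encode a chaperone of the ER lumen (Hspa5), its J-domain partners (Dnajb11 and Dnajc3) and a disulphide isomerase (Pdia6), which can be set side by side below. Each is written 5′ to 3′ along the gene, with the element in capitals; all 4 genes lie on the plus strand.
Hspa5: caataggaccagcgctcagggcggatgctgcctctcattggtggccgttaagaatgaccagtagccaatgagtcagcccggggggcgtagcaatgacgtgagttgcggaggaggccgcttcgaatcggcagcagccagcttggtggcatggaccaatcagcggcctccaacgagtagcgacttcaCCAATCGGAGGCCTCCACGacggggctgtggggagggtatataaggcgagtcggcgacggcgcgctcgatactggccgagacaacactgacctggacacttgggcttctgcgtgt
Dnajb11: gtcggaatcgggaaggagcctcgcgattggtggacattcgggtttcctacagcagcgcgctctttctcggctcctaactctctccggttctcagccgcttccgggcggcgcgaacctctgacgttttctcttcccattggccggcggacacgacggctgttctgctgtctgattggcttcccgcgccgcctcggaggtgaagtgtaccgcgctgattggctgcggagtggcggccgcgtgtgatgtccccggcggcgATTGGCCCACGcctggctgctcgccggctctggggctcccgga
Dnajc3: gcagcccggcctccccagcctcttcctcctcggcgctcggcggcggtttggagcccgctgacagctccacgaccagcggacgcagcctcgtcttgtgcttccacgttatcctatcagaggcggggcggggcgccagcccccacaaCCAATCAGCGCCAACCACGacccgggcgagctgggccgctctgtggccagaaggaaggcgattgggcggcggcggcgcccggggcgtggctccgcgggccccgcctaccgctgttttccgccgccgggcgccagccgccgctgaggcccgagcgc
Pdia6: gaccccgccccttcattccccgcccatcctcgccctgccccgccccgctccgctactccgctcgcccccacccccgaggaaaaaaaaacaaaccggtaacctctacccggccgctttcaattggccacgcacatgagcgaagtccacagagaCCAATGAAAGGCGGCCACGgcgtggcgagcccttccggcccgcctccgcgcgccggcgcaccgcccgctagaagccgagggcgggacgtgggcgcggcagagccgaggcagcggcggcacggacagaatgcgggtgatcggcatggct
The windows are chr2:34771840-34772139 for Hspa5, chr16:22857595-22857894 for Dnajb11, chr14:118937682-118937981 for Dnajc3 and chr12:17266339-17266638 for Pdia6. The element ran from base 65 to base 47 before the start in Hspa5, from base 105 to base 87 in Dnajc3 and from base 98 to base 80 in Pdia6. In Dnajb11 it lay after the start, at bases 8 to 18.

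The probes of these 4 genes differed in signal. Over the 63 arrays, Dnajb11 averaged a Z score of 1.34 (SD 0.14) and Hspa5 1.11 (SD 0.10), whereas Dnajc3 averaged -0.40 (SD 0.14) and Pdia6 -0.96 (SD 0.16). Hspa5, also called BiP, the Hsp70 of the ER and a standard marker of the unfolded protein response, had the following Z scores as lowest, median and highest of a group. In CR mice these were 1.02, 1.12 and 1.16 at 6 months (n = 9), 0.96, 1.07 and 1.19 at 16 months (n = 8) and 0.92, 1.09 and 1.16 at 24 months (n = 7). In AL mice they were 1.10, 1.13 and 1.34 at 17-21 days (n = 5), 0.98, 1.07 and 1.17 at 33-44 days (n = 5), 0.98, 1.12 and 1.29 at 6 months (n = 10), 1.00, 1.18 and 1.30 at 16 months (n = 10) and 0.95, 1.15 and 1.35 at 24 months (n = 9). All 8 groups overlapped, and the within-group SD of Hspa5, 0.0982, was among the smallest 4.3% of all features. Its difference between 24 and 6 months was -0.04 under CR (95% interval -0.15 to 0.07) and 0.01 under AL (-0.08 to 0.11), neither called.

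The other 3 genes with the element did not pass the test either. At 24 against 6 months, the difference in Z score of Dnajb11 was -0.01 under CR (-0.15 to 0.13) and 0.07 under AL (-0.06 to 0.20). That of Dnajc3 was -0.03 under CR (-0.17 to 0.11) and 0.00 under AL (-0.13 to 0.13). That of Pdia6 was -0.07 under CR (-0.24 to 0.09) and -0.11 under AL (-0.26 to 0.05). The intervals all included 0. Between 33-44 days and 17-21 days the differences were -0.10 for Hspa5, 0.15 for Dnajb11, -0.01 for Dnajc3 and 0.06 for Pdia6, with adjusted p between 0.423 and 0.976 (limma).

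**Figure D1:**
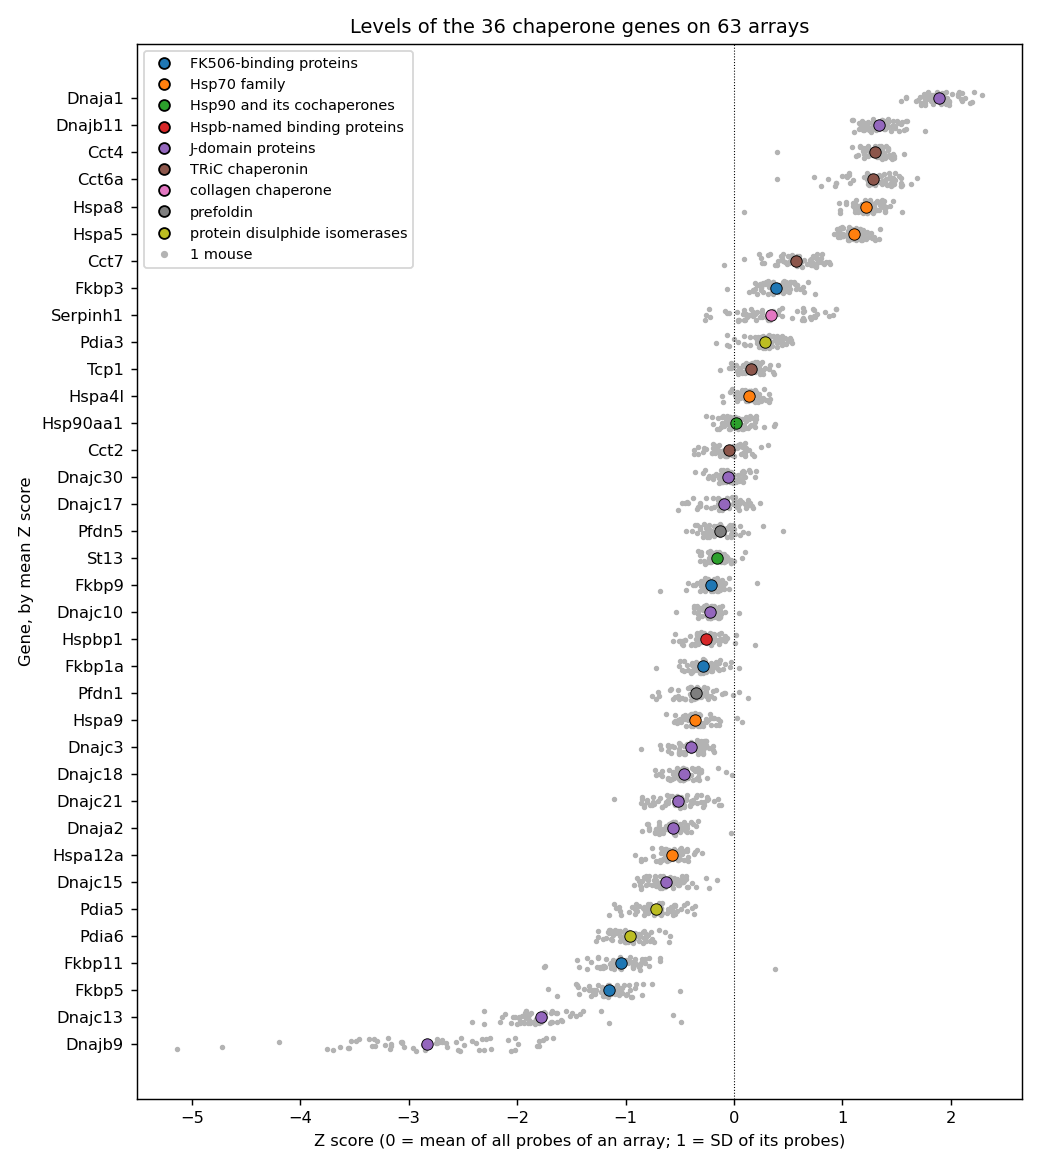
Z score of each of the 36 chaperone genes on the 63 arrays used. Grey points are single mice, large coloured points are means coloured by class, and genes run down the page by mean Z score from Dnaja1 (1.89) to Dnajb9 (-2.83); the order is one of probe signals.

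Over all 36 genes the median mean Z score was -0.184, against -0.028 over all 7782 features, and 13 genes (36.1%) were above 0, against 48.7% of the features. Signal and spread differed widely among the members. Dnaja1, a J-domain partner of cytosolic Hsp70, had the strongest signal (1.89) with a pooled SD within groups of 0.150, and its difference between 24 and 6 months was 0.00 under CR (-0.16 to 0.15) and 0.11 under AL (-0.03 to 0.25). Dnajb9, a J-domain cofactor of Hspa5 in the ER, had the weakest signal (-2.83) and the largest pooled SD within groups (0.757), and 200 features of similar level had a median SD of 0.439. Dnajc13, an endosomal J-domain protein that works with Hspa8 on membrane traffic, averaged -1.78 with an SD of 0.342. Serpinh1, the collagen chaperone of the ER, averaged 0.34 with an SD of 0.334, against 0.164 among features of similar level. At the other end, St13, which stabilizes Hsp70 in its ADP-bound form, had an SD of 0.0888. The median SD was 0.149 over the members and 0.167 over all features.

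The 5 classes with at least 3 genes kept their order of signal in each of the 8 groups of age and diet. The median over TRiC subunits was 0.608, 0.534 and 0.656 in CR mice at 6, 16 and 24 months, against 0.573, 0.486 and 0.624 in AL mice. For the Hsp70 family the medians were 0.118, 0.115 and 0.133 in CR mice, against 0.168, 0.199 and 0.112 in AL mice. For the FK506-binding proteins they were -0.297, -0.266 and -0.354 in CR mice, against -0.263, -0.236 and -0.337 in AL mice. J-domain proteins lay at -0.412, -0.404 and -0.441 in CR mice, against -0.462, -0.472 and -0.455 in AL mice, and protein disulphide isomerases between -0.798 and -0.674 in both diets. In each of these classes the medians of single mice of 1 group spread more widely than the class median moved between 6 and 24 months.

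**Figure D2:**
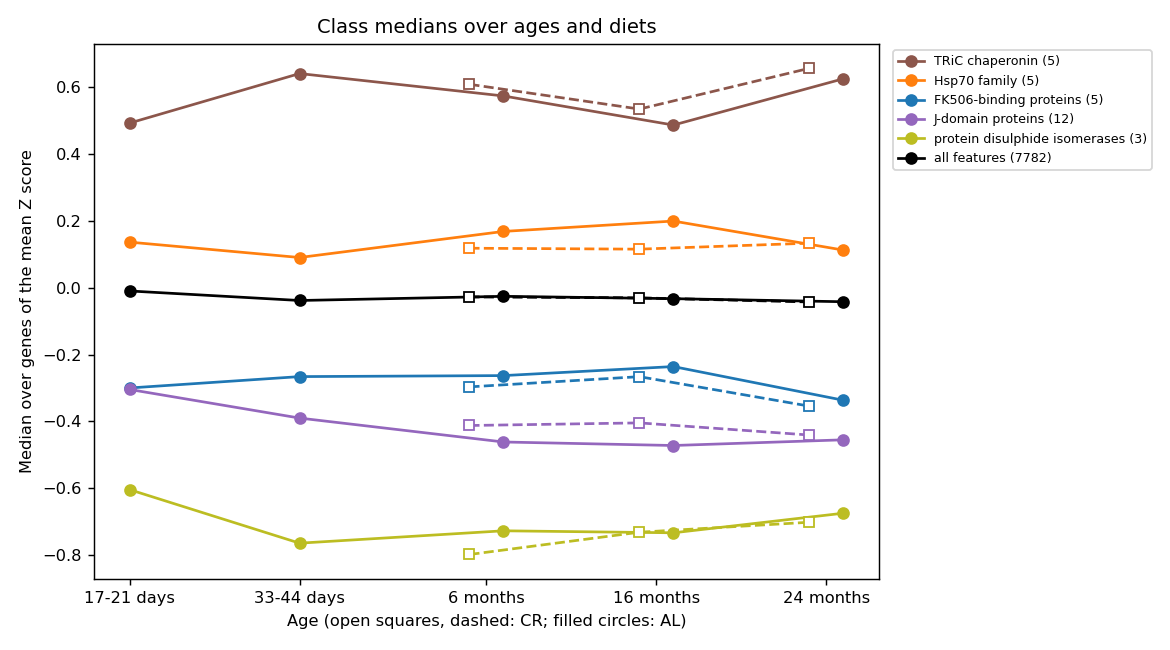
Median over the genes of a class of the mean Z score, by age, for CR mice (open squares, dashed) and AL mice (filled circles), with all 7782 features in black. The classes stay apart and the lines are close to level: TRiC subunits stand at 0.486 to 0.656 and protein disulphide isomerases at -0.798 to -0.604.

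For 6 genes a pair of probes allowed the signal to be read independently. The pair for Hspa8, the constitutive cytosolic Hsp70 that also strips clathrin from vesicles, averaged 2.24 and 0.20, a gap of 2.03 that held on 63 of 63 arrays. The gaps of the other pairs were 0.95 for Hspa12a, 0.74 for Dnajc10, 0.64 for St13, 0.48 for Pdia6 and 0.45 for Cct2. The median gap was 0.690, against 0.738 over 485 genes with a pair of probes. A mean over such a pair therefore says little about the amount of the transcript, and the comparisons below are between mice within a gene.

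The adult comparisons addressed how age and diet acted on these genes between 6 and 24 months. None of the 36 genes was called at 24 against 6 months, in CR mice or in AL mice, and 0% of the 7782 features was called in either (limma with Benjamini-Hochberg adjustment over all features, adjusted p under 0.05). At an unadjusted p under 0.05, 1 member stood out under CR (1.12% of all features) and 0 under AL (2.49%). The difference in Z score ran from -0.15 (Dnajc30) to 0.15 (Dnajb9) under CR and from -0.15 (Dnajc13) to 0.21 (Fkbp11) under AL. The 95% interval of a member, which is not adjusted for the number of features, reached a median of 0.153 to either side under CR and 0.138 under AL. Changes of that size could not be resolved for a typical gene, and a call after adjustment needed a larger difference. The signs were uneven under CR, where 26 of 36 differences were negative and 27.8% positive, against 50.8% positive over all features, with a median of -0.0198 against 0.0012. Under AL, 19 were negative and 17 positive. The genes share their mice, so their signs are not independent, and no count of signs, here or below, was tested. At 24 against 16 months under CR, a comparison that shares the 24-month CR mice, 25 were negative and 30.6% positive, against 51.9% positive over all features.

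**Figure D3:**
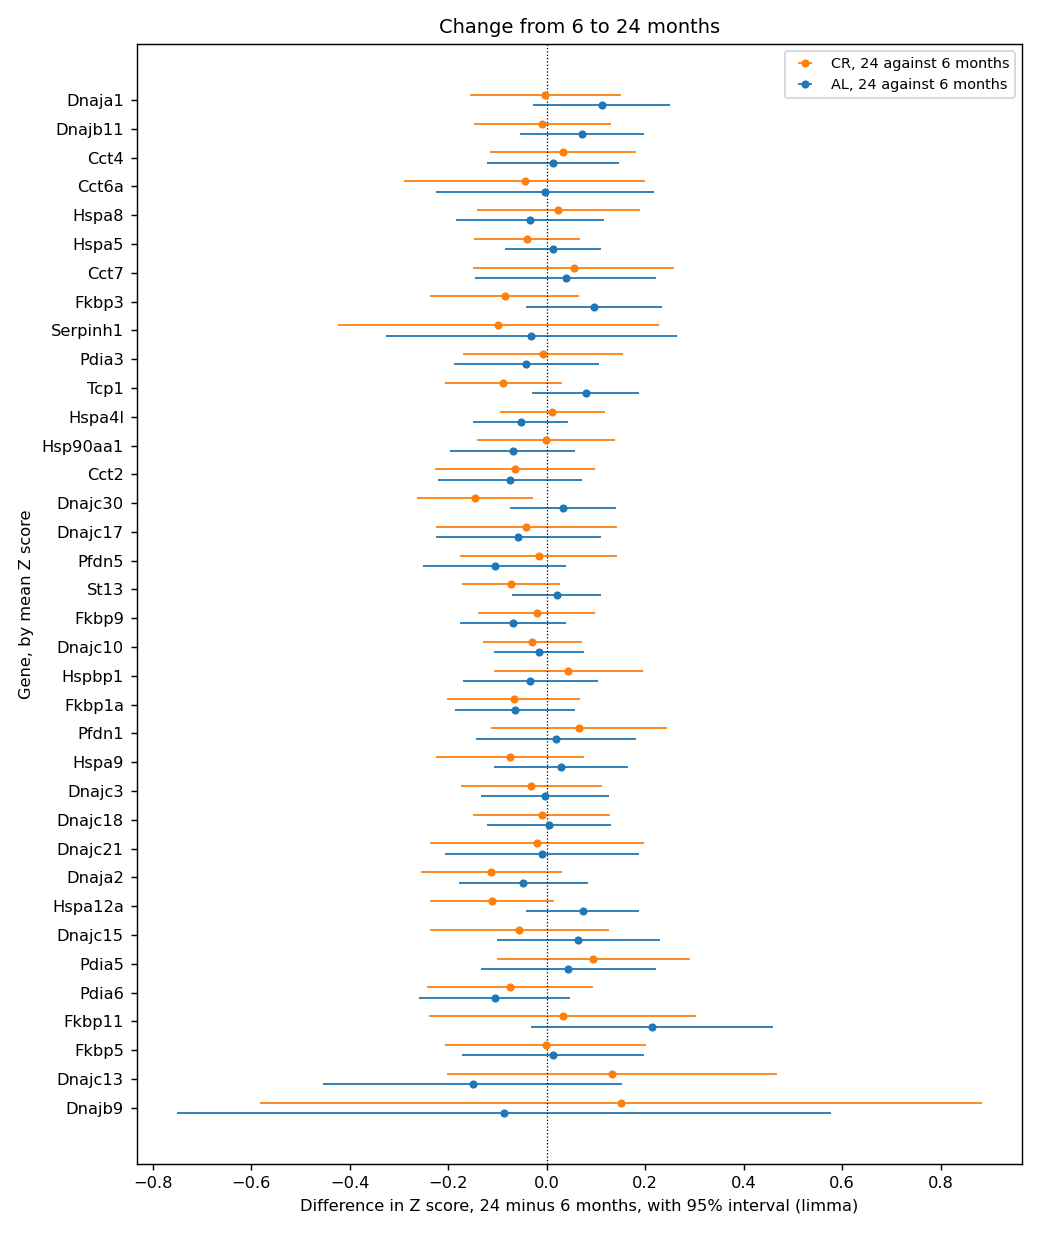
Difference in Z score, 24 minus 6 months, for each of the 36 genes with its 95% interval from limma, in CR mice (orange, upper of each pair) and AL mice (blue, lower). Only the interval of Dnajc30 under CR leaves out 0, and Dnajb9 has the widest in both diets.

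Hsp70 family and Hsp90 members showed no called change. Hspa8 had Z scores with lowest, median and highest of 1.14, 1.27 and 1.38 in CR mice at 6 months, 1.21, 1.26 and 1.55 at 16 months and 1.10, 1.29 and 1.44 at 24 months. In AL mice they were 1.10, 1.23 and 1.38 at 6 months, 0.98, 1.24 and 1.39 at 16 months and 0.97, 1.17 and 1.32 at 24 months. These 6 groups overlapped throughout. The difference in Hspa8 between 24 and 6 months was 0.02 under CR (-0.14 to 0.19) and -0.03 under AL (-0.18 to 0.12).

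Hspa9, the mitochondrial Hsp70 that pulls proteins through the inner membrane, had a lowest, median and highest of -0.53, -0.34 and -0.14 in CR mice at 6 months, -0.47, -0.37 and -0.21 at 16 months and -0.63, -0.44 and -0.21 at 24 months. In AL mice they were -0.49, -0.40 and -0.13 at 6 months, -0.52, -0.35 and 0.07 at 16 months and -0.55, -0.35 and 0.03 at 24 months, overlapping in every pair of groups. The young AL mice lay at -0.52 to -0.32 at 17-21 days (median -0.40) and -0.44 to -0.26 at 33-44 days (median -0.33). Hspa9 differed between 24 and 6 months by -0.07 under CR (-0.22 to 0.08) and 0.03 under AL (-0.11 to 0.17).

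Hsp90aa1, the stress-inducible cytosolic Hsp90, had a lowest, median and highest of -0.19, 0.01 and 0.37 in CR mice at 6 months, -0.16, 0.05 and 0.20 at 16 months and -0.06, 0.04 and 0.13 at 24 months. In AL mice they were -0.10, -0.03 and 0.28 at 6 months, -0.11, 0.03 and 0.38 at 16 months and -0.20, -0.09 and 0.09 at 24 months. The young AL mice lay at -0.26, -0.06 and 0.15 at 17-21 days and at 0.00, 0.03 and 0.16 at 33-44 days. The median was lowest in 24-month AL mice and the lowest single value was of 17-21 days, and the groups overlapped. At 24 against 16 months under AL the difference was -0.13 (-0.25 to 0.00, unadjusted p 0.0533, adjusted p 1.00 by limma), the third smallest p among the members there.

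In the comparison of 24 against 16 months under AL, 0 members and 0% of the features were called, and 2 members (3.92% of features) had an unadjusted p under 0.05. They were Pdia6, with a difference of -0.18 (-0.34 to -0.03), and Fkbp11, an ER member of the FK506-binding family, with 0.28 (0.03 to 0.52). The Fkbp11 value rested on 1 male of 24 months at 0.38, where the other 8 AL mice of that age lay between -1.13 and -0.68; without that mouse it was 0.09. At 16 against 6 months under AL, 0 members and 0% of features were called, and 0 members were under 0.05 unadjusted (1.34% of features); Hspa12a (0.07), Pdia6 (0.08) and Hspa5 (0.05) had the smallest p. In these 2 comparisons 27 members were positive at 16 against 6 months, where 50.9% of all features were positive, and 26 negative at 24 against 16 months, where 48.6% were positive; both comparisons share the 16-month AL mice.

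Under CR, 0 members and 0% of features were called at 16 against 6 months and at 24 against 16 months. At 16 against 6 months 2 members (2.13% of features) had an unadjusted p under 0.05. Dnajc13 differed by 0.38 (0.06 to 0.70); the 16-month values of -0.49, -1.15 and -1.23 in 3 mice lay above the 6-month mice, of which the highest stood at -1.42, and without the mouse at -0.49 the difference was 0.20. Hspa12a, a distant Hsp70 relative, differed by -0.13 (-0.25 to -0.01). At 24 against 16 months 0 members had an unadjusted p under 0.05 (2.51% of features), with Dnajc30 (-0.11), St13 (-0.09) and Pdia6 (-0.12) closest. Dnajc30, a mitochondrial J-domain protein, was also the member with the smallest p at 24 against 6 months under CR, where it averaged -0.13 ± 0.11 at 24 months (SD, n = 7) and 0.01 ± 0.12 at 6 months (n = 9), a difference of -0.15 (-0.26 to -0.03, unadjusted p 0.0168, adjusted p 1.00 by limma).

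Diet was compared at each age. Of the 36 genes, 0 were called for CR against AL at 6, 16 or 24 months, and 0% of the features at each age. Unadjusted p was under 0.05 for 0 members at 6 months (0.655% of features), 0 at 16 months (2.13%) and 2 at 24 months (2.25%). The 2 were Fkbp9, an ER FK506-binding protein, at 0.14 (0.02 to 0.26), with -0.18 ± 0.10 in CR mice (SD, n = 7) and -0.30 ± 0.08 in AL mice (n = 9), and Fkbp11 at -0.29 (-0.56 to -0.02). Fkbp9 stood at -0.12 to -0.05 in the CR males and at -0.38 to -0.26 in the AL males, which also differed in age. In the females it overlapped, at -0.31 to -0.16 under CR and -0.44 to -0.18 under AL. The Fkbp11 value was again that of the AL male at 0.38 and was -0.10 without it. Among females alone at 24 months, whose ages match, 0 members and 0% of features were called, with 0 members under 0.05 unadjusted (5.37% of features).

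The values nearest to the threshold for the other diet comparisons were small. At 6 months the smallest p belonged to Hspa12a (difference 0.11, CR minus AL), Fkbp9 (0.09) and Tcp1 (0.09). At 16 months it belonged to Hspa5 (-0.09), Cct6a (-0.20) and Hspa4l (-0.08), an Hsp110-class exchange factor for Hsp70. The Cct6a value leaned on 1 CR female at 0.40, where the rest of its group lay between 1.06 and 1.54. Without that mouse the Cct6a difference was -0.08. In females of 24 months Dnajb11 (0.15), Dnaja2 (-0.16) and Dnajc3 (-0.15) came closest, each with an unadjusted p of 0.099 or more.

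Whether the change from 6 to 24 months differed between the diets was tested directly. Of the 36 genes, 0 were called, as was 0% of the features, and 3 members had an unadjusted p under 0.05 (0.9% of features), all negative: Dnajc30 (-0.18, 95% interval -0.34 to -0.02), Hspa12a (-0.18, -0.35 to -0.01) and Tcp1 (-0.17, -0.33 to -0.01). By the selection criteria of the study's methods (a Z ratio of 1.5 in size, a mean Z score above 0 and an unadjusted p under 0.05, without the later analysis of variance), whose Z ratio is defined between a pair of conditions and was here formed for a difference of differences, Tcp1 was the 1 member that passed, with 0.0643% of features passing. By these criteria 0 members passed in any other adult comparison. The share of features that passed was 0.45% at 16 against 6 months, 0.424% at 24 against 16 months and 0.09% at 24 against 6 months under CR, and 0.116%, 0.771% and 0.475% in the same order under AL. It was 0.0257% for CR against AL at 6 months, 0.668% at 16 months, 0.321% at 24 months and 1.49% in the females of 24 months, and 0.116% for females against males.

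Tcp1 is the alpha subunit of TRiC, the ring that folds actin and tubulin. In CR mice its lowest, median and highest Z scores were 0.11, 0.19 and 0.41 at 6 months, -0.01, 0.12 and 0.29 at 16 months and -0.13, 0.16 and 0.21 at 24 months. In AL mice they were -0.03, 0.19 and 0.33 at 17-21 days, 0.02, 0.15 and 0.36 at 33-44 days, -0.02, 0.09 and 0.26 at 6 months, -0.05, 0.17 and 0.32 at 16 months and -0.03, 0.21 and 0.37 at 24 months. The means thus ran in opposite directions, with 24 minus 6 months at -0.09 under CR (-0.21 to 0.03) and 0.08 under AL (-0.03 to 0.19), and every pair of groups overlapped. Of the other TRiC subunits, Cct6a differed between 24 and 6 months by -0.04 under CR and 0.00 under AL, and Cct2 by -0.06 under CR and -0.07 under AL.

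In the remaining classes no member was called at 24 against 6 months either, which does not show that they were unchanged. Prefoldin delivers unfolded actin and tubulin to TRiC; Pfdn1 differed between 24 and 6 months by 0.07 under CR and 0.02 under AL, and Pfdn5 by -0.02 under CR and -0.11 under AL. St13 differed by -0.07 under CR and 0.02 under AL, and Hspbp1, a nucleotide exchange factor of Hsp70, by 0.04 under CR and -0.03 under AL. Among the FK506-binding proteins, Fkbp3, a nuclear member and the class's strongest signal (mean 0.39), differed by -0.09 under CR and 0.10 under AL. Fkbp5, a cochaperone of the glucocorticoid receptor and the weakest (-1.15), differed by 0.00 under CR and 0.01 under AL. Pdia3, which folds glycoproteins with calnexin and calreticulin, averaged 0.29 and differed by -0.01 under CR and -0.04 under AL.

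Serpinh1 varied more between mice than between groups. Its lowest, median and highest Z scores were 0.04, 0.31 and 0.77 in CR mice at 6 months, -0.27, 0.50 and 0.94 at 16 months and -0.08, 0.26 and 0.71 at 24 months. In AL mice they were 0.11, 0.21 and 0.74 at 17-21 days, -0.06, 0.31 and 0.88 at 33-44 days, -0.23, 0.36 and 0.94 at 6 months, 0.03, 0.35 and 0.75 at 16 months and -0.26, 0.18 and 0.91 at 24 months. The groups overlapped throughout, and the difference between 24 and 6 months was -0.10 under CR (-0.42 to 0.23) and -0.03 under AL (-0.33 to 0.27). Of the meningeal and choroid plexus markers 4 of 9 were measured, and their summed Z score ran from -0.25 to 0.71 in AL mice of 6 months; their part in the Serpinh1 values was not tested.

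**Figure D4:**
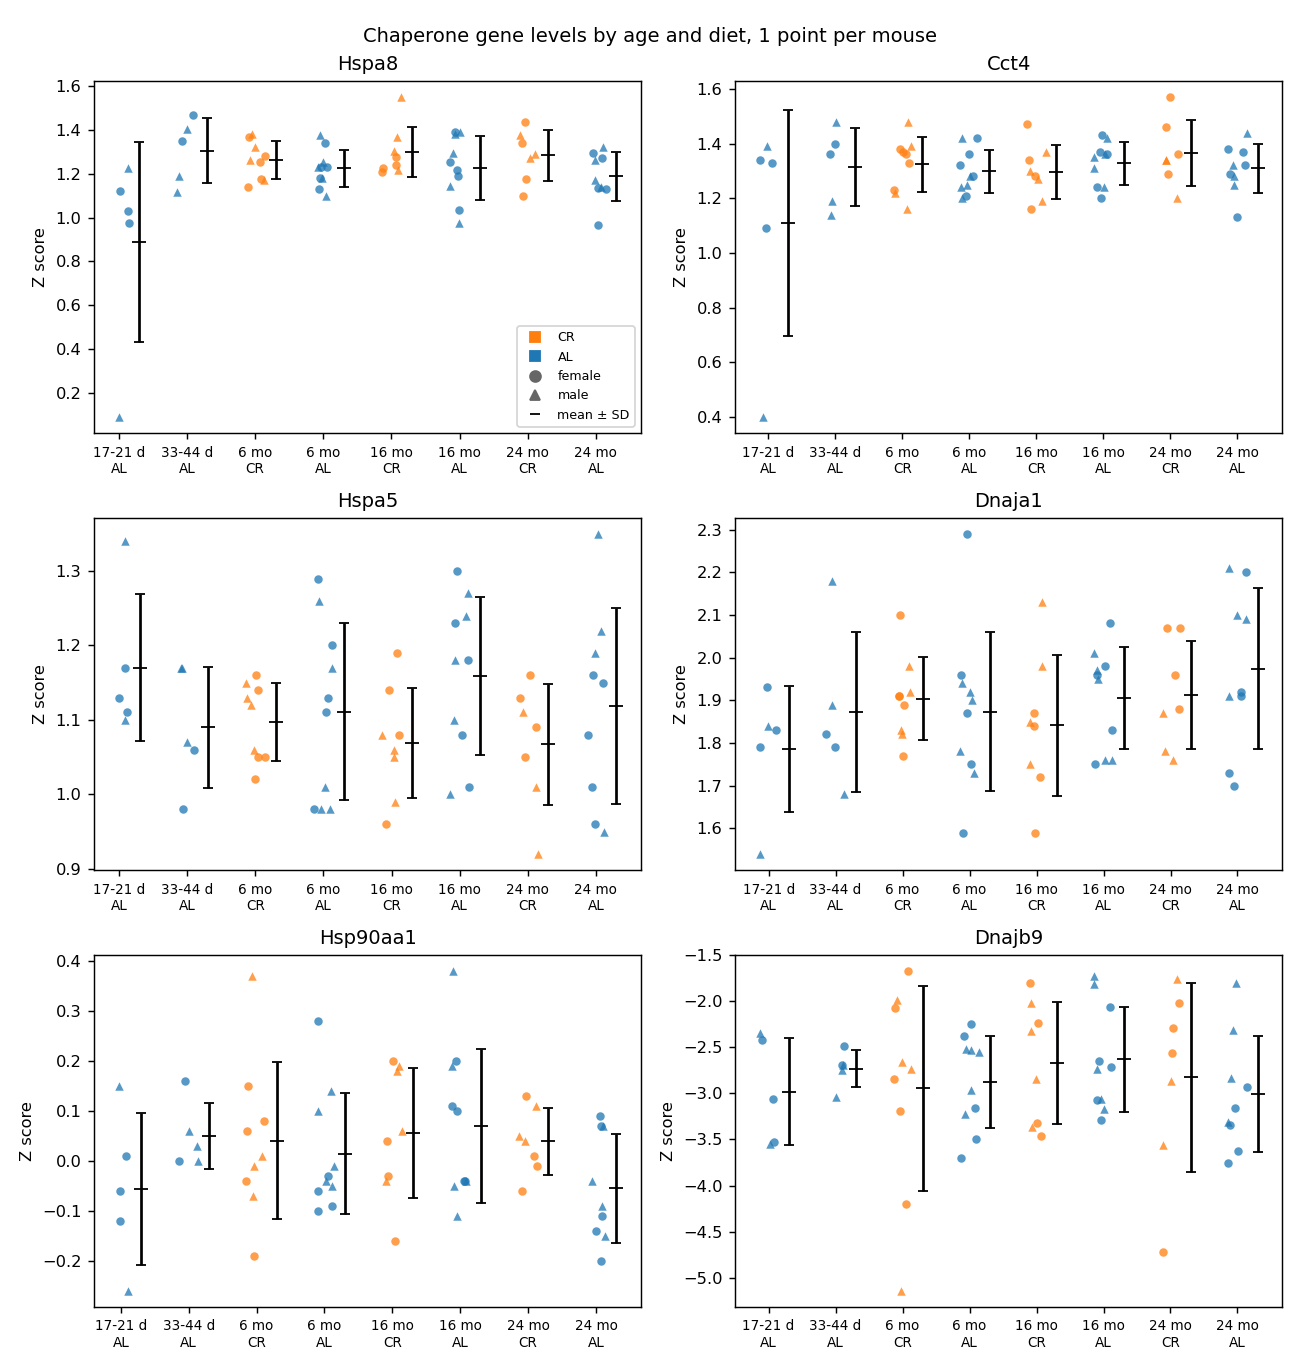
Z score of 6 chaperone genes in each of the 63 mice, by age and diet, CR in orange and AL in blue, females as circles and males as triangles, with mean and SD beside each group. A single male of 17-21 days lies apart in Hspa8 (0.09) and Cct4 (0.40), and the adult groups overlap in all 6 panels.

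The young AL mice were compared with each other and with 6-month AL mice to cover postnatal maturation of the cerebellum. Hspa8 was the 1 member called in both comparisons with 17-21 days: 33-44 days against 17-21 days (0.308% of features called) and 6 months AL against 17-21 days (0.411%). At 33-44 days its Z scores were 1.47 and 1.35 in the females and 1.19, 1.12 and 1.41 in the males. At 17-21 days they were 1.12, 0.975 and 1.03 in the females and 0.09 and 1.23 in the males. All 5 older mice were at 1.12 or more, and 1 young male at 0.09 stood far below all others; the remaining 4 young mice reached 1.23 and overlapped with the older ones. The difference was 0.47 (SE 0.105, 95% interval 0.26 to 0.68, adjusted p 0.0274 by limma) against 17-21 days at 33-44 days, and 0.38 (SE 0.0901, 0.19 to 0.56, adjusted p 0.0370 by limma) at 6 months. These intervals and p-values, and those below, use a spread pooled over the 16 groups, 0.163 for Hspa8. The SD of Hspa8 among the mice of 17-21 days was 0.456, so the spread of that group is understated.

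The Hspa8 calls rested on that male. Without it the differences were 0.19 at 33-44 days (adjusted p 0.780 by limma) and 0.09 at 6 months (adjusted p 0.870 by limma), and 0 members were called in either comparison; the 1 male then left at 17-21 days is assumed to vary like the other groups. In females alone the difference was 0.37 at 33-44 days (adjusted p 0.803) and 0.18 at 6 months (adjusted p 0.938), and in males alone, with 2 males at 17-21 days, 0.58 at 33-44 days (adjusted p 0.0398) and 0.57 at 6 months (adjusted p 0.0154). At 33-44 days the brighter Hspa8 probe gave 0.57 and the dimmer 0.38, at 6 months 0.47 and 0.28, and the male was the lowest mouse of the 10 young mice on both (0.89 and -0.71). With the run of arrays as a block, the difference at 33-44 days was 0.45 (adjusted p 0.0881). In each of the 3 runs that held both ages, the mouse of 33-44 days was the higher (1.19 against 1.12, 1.12 against 0.975 and 1.47 against 1.23). Each of these pairs was a male and a female, so age and sex cannot be told apart in them.

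On the same array the Z score of Cct4, the delta subunit of TRiC, was 0.40, against 1.09 to 1.39 in the other 4 mice of 17-21 days; Cct4 was named after its values were seen. Its difference was 0.25 at 33-44 days (adjusted p 0.246 by limma) and 0.22 at 6 months (adjusted p 0.30 by limma), and without the male 0.00 and -0.02. That array had the lowest median correlation of those used, 0.921. On it, 6 chaperone genes were below and 1 above all other arrays (16.7% and 2.78%), against 10.8% below and 8.44% above over all features. The summed Z score of the 2 measured astrocyte markers was 0.94 to 1.34 at 33-44 days and 0.00 to 1.5 at 17-21 days. That of the 2 Purkinje cell markers was 0.72 to 1.04 at 33-44 days and 0.21 to 1.17 at 17-21 days. The 2 Purkinje cell markers went opposite ways at 33-44 against 17-21 days, Car8 by 0.31 and Calb1 by -0.17. At 6 months against 17-21 days they did so too, by 0.29 and -0.16, and neither was called in either comparison. The part of these markers in the Hspa8 result was not tested.

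At an unadjusted p under 0.05, 3 members differed between 33-44 and 17-21 days (13.4% of features), namely Hspa8, Cct4 and Dnajc18 (-0.19), and 5 between 6 months and 17-21 days (10.7% of features), namely Hspa8, Cct4, Dnajc18 (-0.22), Dnajc17 (-0.21) and Hspa12a (-0.14). The shares of members, 8.33% and 13.9%, lay below and a little above those of all features. By the study's criteria 1 member passed at 33-44 days (4.1% of features), Hspa8, and 2 at 6 months (4.07%), Hspa8 and Cct4. Between 6 months and 33-44 days, 0 members and 0% of the features were called, with 0 members under 0.05 unadjusted (1.72% of features).

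For sex there was no call either. Of the 36 genes, 0 were called for females against males over the adult groups, as was 0% of features, and 0 members had an unadjusted p under 0.05 (1.29% of features). Of the differences, females minus males, 24 were negative and 33.3% positive, against 50.3% positive over all features. The median 95% interval reached 0.0836 to either side, the narrowest of the 15 comparisons, and the members with the smallest p were Fkbp1a, the small FK506-binding protein of the ryanodine receptor (-0.06, females minus males), Cct6a (-0.09) and Dnajc15 (-0.06).

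Other genes of the folding network were read from lists. Of 20 listed stress response genes 8 were measured, of 18 other ER folding factors 2 and of 13 other Hsp90 and Hsp70 cochaperones 5. Of 10 other mitochondrial chaperones and proteases 5 were measured, and of 12 other protective chaperones and tubulin cofactors 8. None of these genes was called at 24 against 6 months in CR or AL mice, or in the comparisons with 17-21 days. Their median differences at 24 against 6 months lay between -0.03 and 0.04 under CR and between -0.02 and 0.02 under AL, against 0.0012 and -0.0004 over all features. Xbp1, the transcription factor of an arm of the unfolded protein response, and Atf4, that of another, averaged Z scores of 0.38 and 1.14. Between 24 and 6 months they differed by 0.01 and 0.01 under CR and by 0.03 and 0.00 under AL. Creld2 was the 1 gene of the 8 in the first list with an unadjusted p under 0.05 in the comparisons with 17-21 days. The share over all features was 13.4% at 33-44 days and 10.7% at 6 months. Creld2 differed by -0.32 at 33-44 days and -0.26 at 6 months (unadjusted p 0.0025 and 0.0035, adjusted p 0.149 and 0.225 by limma). In the other lists Ptges3 (33-44 days), Pam16 (both), Clpx and Nap1l1 (6 months) were also under 0.05 unadjusted, Clpx higher and the rest lower. These values are not given without the male on which the Hspa8 calls rested.

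The 3 arrays left out stood apart in the chaperone genes as in the rest. Of the 36 genes, 14, 15 and 22 lay outside the range of the other mice of their group (38.9%, 41.7% and 61.1%), against 41.2%, 42.8% and 72.6% of all features. On the 2 arrays of 16-month CR mice Hspbp1 stood at -3.60 and -3.09, against -0.34 to 0.02 in the other 8. With all 66 arrays in the fit, 0 members were called in each of the 15 comparisons, Hspa8 included (adjusted p 0.0541 at 33-44 days and 0.0553 at 6 months, limma).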

How the data were processed

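Total RNA of each cerebellum was labelled with 33P-dCTP per the labels (the study's methods name another isotope of phosphorus), hybridized to a nylon cDNA filter and quantified by the authors. The authors deposited a Z score per probe and array (the intensities less the array's mean, divided by its SD); the sources do not state if logarithms were taken first, nor a genome build. Arrays were divided here into 5 runs of consecutive array numbers. The array titles give a number and name no batch, so the borders of the runs are inferred. Not every group stood in every run. Of the 8448 probes, 4875 carried 1 gene symbol, 224 several and 3349 none; 1 array number of 67 was not analysed. Probes of a gene were averaged, giving 7782 features with the unnamed probes.

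One mean per sex, age and diet (16 groups) was fitted with limma 3.58.1 in R 4.3.3 on 63 arrays, with sexes weighted equally, moderated variances and two-sided tests, adjusted over all features (Benjamini-Hochberg, called under 0.05). Arrays with a median correlation under 0.9 were left out. The residual degrees of freedom were 47 and the prior 5.36. Mice are the replicates, and their number limits the precision. The fit was tested on simulated data.

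Genes named were those called, otherwise the 3 with the smallest unadjusted p in a comparison, the highest and lowest mean Z score of each larger class, every gene of the small classes, the best known members and the 3 with the largest SD. The members and lists were chosen with earlier results of these data known; 1 list is not reported here. Alternatives were all 66 arrays, a filter on mean Z score, quantile normalization, a correction for position within runs of 22 probe numbers, the run of arrays as a block, array weights, single probes, unadjusted p, the study's selection criteria (without the later analysis of variance of its methods, which was not run) and leaving out each mouse.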

Additional observations from a re-analysis of the deposited data

Results flagged for a closer look

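Single mice stood apart from their group of age and diet in 21 of 288 combinations of a gene and a group. The rule was a gap to the nearest mouse beyond Dixon's critical value, and chance flags about 1 in 20. It was not applied to all features. The mice numbered 5 below all came from the last run of arrays. Median array correlations were 0.922 and 0.932 for CR female 5 and male 5 of 16 months. They were 0.927 and 0.972 for AL female 5 and male 5 of 6 months, and 0.953 for CR female 5 of 6 months. The part of the run in these flags was not tested. Mice are numbered within their sex, age and diet, and the ranges are those of the rest of the group. Female 5 of the CR mice of 16 months had Cct6a at 0.40 (1.06 to 1.54 in the rest), Pdia3 at -0.17 (0.32 to 0.50 in the rest) and Pdia5 at -1.15 (-0.82 to -0.53 in the rest). Female 5 of the AL mice of 6 months had Cct7 at -0.09 (0.45 to 0.88 in the rest), Dnaja1 at 2.29 (1.59 to 1.96 in the rest) and Dnajc21 at -1.11 (-0.62 to -0.15 in the rest). Male 2 of the AL mice of 16 months had Dnaja2 at -0.03 (-0.73 to -0.40 in the rest) and Hspa12a at -0.365 (-0.655 to -0.51 in the rest). Male 1 of the AL mice of 17-21 days had Dnajc10 at -0.535 (-0.24 to -0.18 in the rest) and Hspa8 at 0.09 (0.975 to 1.225 in the rest). Male 4 of the AL mice of 6 months had Dnajc13 at -0.56 (-2.02 to -1.51 in the rest). Female 5 of the CR mice of 6 months had Dnajc17 at -0.48 (-0.12 to 0.10 in the rest) and Tcp1 at 0.41 (0.11 to 0.26 in the rest). Male 5 of the CR mice of 16 months had Dnajc3 at -0.67 (-0.38 to -0.26 in the rest), Fkbp11 at -1.74 (-1.24 to -0.85 in the rest) and Hspa8 at 1.55 (1.21 to 1.37 in the rest). Male 2 of the AL mice of 24 months had Fkbp11 at 0.38 (-1.13 to -0.68 in the rest). Male 3 of the CR mice of 6 months had Fkbp11 at -1.75 (-1.24 to -0.86 in the rest). Male 1 of the AL mice of 33-44 days had Fkbp9 at 0.21 (-0.25 to -0.16 in the rest). Male 5 of the AL mice of 6 months had Fkbp9 at -0.68 (-0.28 to -0.12 in the rest). Female 4 of the CR mice of 24 months had St13 at 0.00 (-0.315 to -0.205 in the rest).

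The 3 arrays left out of the comparisons also stood apart. Of the 36 chaperone genes, 14 lay outside the range of their group on the array of the 16-month CR male, 15 on that of the 16-month CR female and 22 on that of the 24-month CR female, against 41.2%, 42.8% and 72.6% of all features on the same arrays.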

How the results depend on the processing

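Calls were few under every setting. Leaving out each of the 63 mice in turn gave 0 chaperone genes in 13 of the 15 comparisons and 0 to 2 in both comparisons with 17-21 days. At 33-44 days against 17-21 days the call was lost (0 members) without any of 5 mice: male 1 and females 2 and 3 of 17-21 days, and female 1 and male 3 of 33-44 days. At 6 months against 17-21 days it was lost without any of 9: male 1 and females 1, 2 and 3 of 17-21 days, and males 2, 3 and 4 and females 3 and 5 of 6 months under AL. Male 1 is the mouse at 0.09; without the other male of 17-21 days, 2 members (Hspa8 and Cct4) and 628 or 572 features were called. Without the male at 0.09 the Cct4 difference at 6 months turned to -0.0237, and without the other male it was 0.4713.

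At 33-44 days against 17-21 days, 0 members were called with all 66 arrays, quantile normalization or the run of arrays as a block. At 6 months against 17-21 days, 0 were called with all 66 arrays, quantile normalization or array weights, whose estimation stopped before convergence; the cause was not tested. At an unadjusted p under 0.05 there were 2 members at 24 against 16 months under AL (3.92% of features), 2 at 16 against 6 months under CR (2.13%), 1 at 24 against 6 months under CR (1.12%), 2 for CR against AL at 24 months (2.25%), 3 for the diet difference in the change (0.9%), 3 at 33-44 days (13.4%) and 5 at 6 months (10.7%) against 17-21 days. By the study's criteria there were 1 for the diet difference (0.0643% of features) and 2 at 6 months against 17-21 days (4.07%).

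Restricting to genes with a mean Z score above 0 moved the class medians by construction, to 0.575 over all members, 0.385 for FK506-binding proteins, 1.11 for the Hsp70 family, 1.61 for J-domain proteins, 0.285 for protein disulphide isomerases and 0.930 for TRiC; over probes in place of genes, TRiC stood at 0.379. The 43 named differences between groups included those of Cct4 in 2 comparisons, which were added after their values were seen. Of their 2970 values under the alternatives, 2943 kept their direction and side of the threshold. Of the rest, 24 lost the threshold, 2 (both Cct4) gained it and 1 (Cct4) turned its sign. Most of the named differences were not called, and leaving out a mouse from outside a comparison does not change its difference. The tally is therefore no measure of robustness. No paired analysis was possible because the labels give no replicate numbers that mice of different groups share; the run of arrays, which most groups share, was fitted as a block instead. Weak probes such as Dnajb9, with a within-group SD of 0.757, allow no statement on small changes.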
